A study of Mus musculus with 27 samples.

Results

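The genes described here are 8 genes of the proximal tubule brush border, namely Mep1a, Mep1b, Anpep, Dpp4, Mme, Enpep, Ggt1 and Vil1, of 19392 genes in the deposited table. They were selected by symbol, with earlier results of these data known, among them the levels across ischemia times, so their values are a description and no p-value is given for them. RNA-Seq was performed on the left kidneys of 27 C57BL/6 mice in the uIRIx model, in which the right kidney is excised and the pedicle of the left kidney is clamped. There were 3 mice at each ischemia time of 0 (sham), 16, 18, 20, 22, 24, 26, 28 and 30 min, and kidneys were taken after 24 h of reperfusion. By the protocol in the labels, which lists the sham group with a clamping time of 0 min, all 27 mice had lost the right kidney, and no group is labelled as unoperated. The age and sex of the mice are not given in the sources used here.

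The brush border is the dense carpet of microvilli on the apical face of the proximal tubule cell. Its membrane carries peptidases that cut filtered peptides into amino acids and short peptides, which the same cell then takes up. Mep1a and Mep1b encode the alpha and beta subunits of the meprins, zinc metalloendopeptidases of the astacin family. Anpep (aminopeptidase N), Enpep (aminopeptidase A) and Dpp4 (dipeptidyl peptidase) trim peptides from the amino end, Mme (neprilysin) cuts within peptides, and Ggt1 (gamma-glutamyltransferase) starts the breakdown of glutathione. Vil1 encodes villin, which bundles the actin filaments inside the microvillus and is no enzyme.

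The promoters of 3 members are shown because the levels of these members took different courses: Mep1a was among the most reduced, while neither Enpep nor Vil1 passed the threshold for a change at any ischemia time. Each sequence runs from 250 to 51 bases before the start of the gene in RefSeq (GRCm38.p6), 5′ to 3′ on the strand of the gene, and overlaps no annotated exon. Capitals mark CAAAG or its reverse complement CTTTG, letters that the binding site of the proximal tubule factor HNF4A contains. Mep1a lies on the minus strand at chr17:43502824-43503023, Enpep on the minus strand at chr3:129332800-129332999, and Vil1 on the plus strand at chr1:74409134-74409333.
Mep1a: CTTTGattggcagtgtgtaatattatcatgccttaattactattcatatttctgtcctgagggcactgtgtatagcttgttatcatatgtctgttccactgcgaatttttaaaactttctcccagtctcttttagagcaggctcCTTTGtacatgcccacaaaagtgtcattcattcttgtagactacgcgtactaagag
Enpep: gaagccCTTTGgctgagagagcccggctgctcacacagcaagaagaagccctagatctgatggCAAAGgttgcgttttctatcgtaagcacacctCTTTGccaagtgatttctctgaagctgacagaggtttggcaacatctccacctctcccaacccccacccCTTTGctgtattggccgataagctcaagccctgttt
Vil1: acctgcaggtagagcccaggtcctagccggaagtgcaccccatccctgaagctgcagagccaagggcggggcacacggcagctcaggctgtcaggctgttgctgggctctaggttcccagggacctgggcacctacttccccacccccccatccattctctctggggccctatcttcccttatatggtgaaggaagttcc
The Mep1a stretch held 2 matches, the Enpep stretch 4 and the Vil1 stretch 0. The letters CAAAG, on either strand, were present in 48.6% of 32851 promoter windows of 250 bases in the reference table, so the match is common to promoters at large. The 7 members listed there had 12 windows, and 9 of these held a match. They belonged to 6 members (Dpp4, Enpep, Ggt1, Mep1a, Mme and Vil1, with the Vil1 match outside the stretch printed above). The longer CAAAGTCCA, which contains CAAAG, was in 0.384% of windows and in no member. GTTAAT, part of the HNF1 site, was in 6.43% of windows and in no member. TATAAA was in 12.4% of windows and in 3 of the 12 member windows, of Dpp4, Enpep and Ggt1. A match is a description of letters in the window and says nothing of binding.

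Levels are in FPKM, fragments scaled by the length of the transcript and by the total of mapped fragments, so that genes can be compared per length. They sum to between 512453 and 554036 per kidney. Read counts are not part of these values, so the depth is unknown and the error comes from the spread between mice. An SD is that of the 3 mice of a group. An SE comes from the limma fit, in which all groups share a single estimate of the spread for each gene. Replicates agreed least at 16 min, where Pearson's r across genes was 0.984 to 0.9925. The 16 min replicate 3 kidney stood close to the sham kidneys, with 35.1 FPKM of the injury marker Havcr1 against 332 and 574 in the other 16 min kidneys and 2.49 to 22.0 in the sham kidneys. The 30 min replicate 3 kidney stood apart in the loop of Henle gene Umod, with 2034 FPKM against 463 and 454, and the 0 min replicate 3 kidney had 63.6 FPKM of Lcn2 against 11.5 and 9.39. Leaving out 1 of these 3 kidneys ended or added some calls. For some genes the value without it is given, and for others only the changed call or count. A gene is called lower or higher where its absolute log2 fold change was above 1 with an adjusted p-value under 0.05 in limma, on quantile normalized log2(FPKM + 1). Every comparison with 0 min uses the same 3 sham kidneys, so these comparisons are not independent of each other. All 8 members passed the filter of being above 0 FPKM in at least 3 kidneys, and 18188 genes were tested.

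In the sham kidneys Mep1a and Ggt1 were the most abundant members and Dpp4 the least. Mep1a stood at 728 ± 44.6 FPKM (SD, n = 3) and Ggt1 at 529 ± 26.3. Mep1b followed at 107 ± 18.6, Vil1 at 69.2 ± 0.261 and Anpep at 66.0 ± 4.76. Enpep stood at 37.6 ± 3.28, Mme at 34.8 ± 3.99 and Dpp4 at 21.2 ± 1.47. In this order the sham kidneys of Vil1 and Anpep overlapped, as did those of Enpep and Mme, and the other neighbours did not overlap. At 30 min the order was Ggt1, Mep1a, Vil1, Enpep, Dpp4, Anpep, Mme and Mep1b, with overlap between Dpp4 and Anpep alone. Mep1b thus went from place 3 to place 8.

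**Figure D1:**
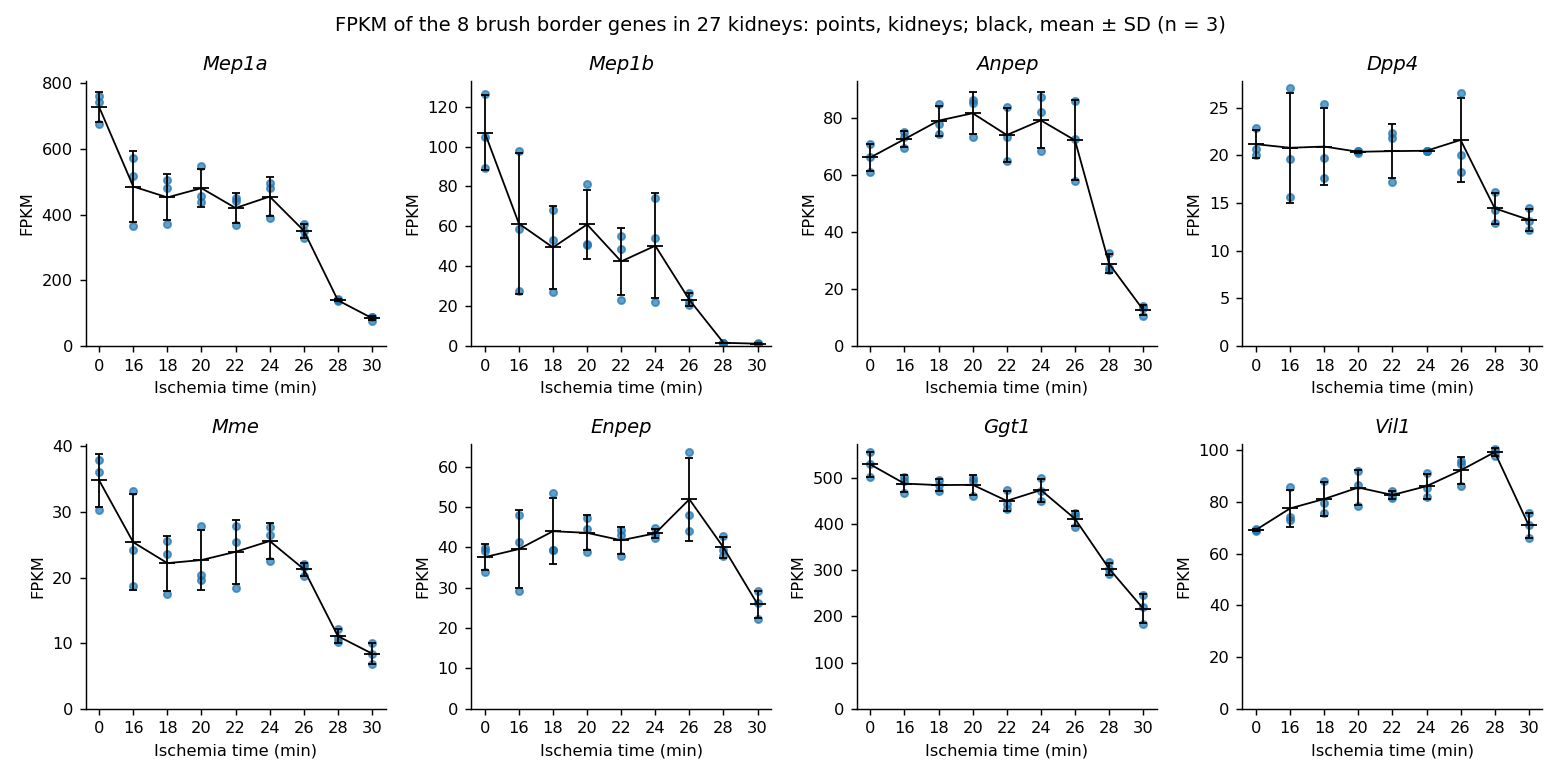
FPKM of the 8 members (vertical axes, linear, from 0) against ischemia time in min (horizontal axes, evenly spaced categories). Each point is 1 kidney, and the black line joins the means with SD (n = 3). Mep1a, Mep1b, Mme and Ggt1 are lower at 16 min than at 0 min on average. Anpep and Dpp4 hold their level to 26 min. With Vil1 the exception, 7 of the 8 genes are lower in all 3 kidneys at 28 min than in any at 26 min. The same holds for 16.4% of all genes tested.

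The meprin subunits fell the most, and Mep1b, the beta subunit that is anchored in the membrane, fell almost to the lower end of the scale. Mep1b was at 126.55, 104.93 and 89.47 FPKM in the 3 sham kidneys. Over the 18 kidneys of 16 to 26 min it ranged from 20.76 to 97.96 with a median of 50.9, so that only the 16 min replicate 3 kidney reached into the range of the sham kidneys. At 26 min it was at 20.76, 22.01 and 26.80 FPKM, at 28 min at 1.5, 1.68 and 1.78, and at 30 min at 0.92, 1.22 and 1.47. The groups of 26 and 28 min did not overlap, and every kidney of 28 and 30 min was under 2% of the sham mean. In means, Mep1b was 64.7-fold lower at 28 min and 88.9-fold lower at 30 min than at 0 min.

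On the log2(FPKM + 1) scale, which understates the change of a gene this low, the Mep1b difference from 0 min was -2.18 ± 0.43 (SE) at 26 min, -5.33 at 28 min and -5.61 at 30 min. With a pseudocount of 0.1 in place of 1 FPKM, the difference was -5.90 at 28 min and -6.36 at 30 min. Between 26 and 28 min alone it was -3.15, which placed Mep1b as number 2 of 18188 genes by decrease. From 28 to 30 min the difference was -0.28 and was not called. In bulk tissue, fewer cells of a type and less RNA per cell cannot be told apart, for Mep1b and for every other value here.

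Mep1a, the alpha subunit that stays at the membrane only when bound to beta, started higher and fell less. Its sham kidneys held 762, 743 and 677 FPKM. The 18 kidneys of 16 to 26 min lay between 330 and 573 with a median of 446, all below the lowest sham kidney, though the difference from 0 min was past the threshold only at 26 min among these times (-1.10 ± 0.18, SE). At 28 min Mep1a was at 136, 142 and 140 FPKM and at 30 min at 89.2, 77.4 and 88.9. These kidneys did not overlap with any kidney of a shorter ischemia time. The log2 difference from 0 min was -2.40 at 28 min and -3.09 at 30 min, and that between 26 and 28 min was -1.30.

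Within each kidney, the level of Mep1b relative to Mep1a went from 0.166, 0.141 and 0.132 in the sham kidneys to 0.0629, 0.0627 and 0.0718 at 26 min. At 28 min it was 0.0110, 0.0118 and 0.0127, and at 30 min 0.0103, 0.0158 and 0.0165. This ratio uses 2 genes of the same kidney and is not touched by scaling between kidneys. Mep1a exceeded Mep1b by a mean of 6.89-fold at 0 min, 15.3-fold at 26 min and 84.7-fold at 28 min. Between 16 and 24 min the ratio varied from 0.0574 to 0.171, with overlap with the sham kidneys at 16, 18, 20 and 24 min and none at 22 min. The mean log2 ratio at 16 min differed from that of the sham kidneys by -0.36 with all 3 kidneys and by -0.66 without the replicate 3 kidney.

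**Figure D2:**
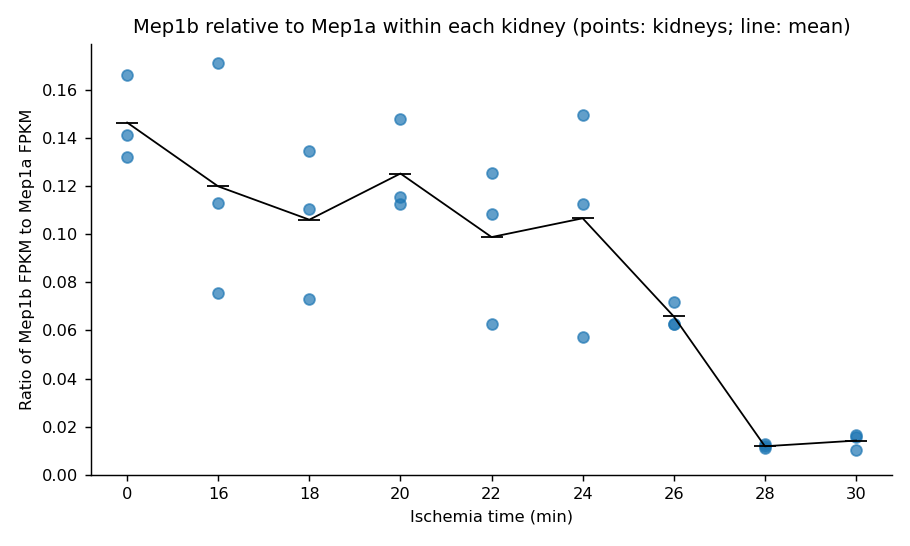
Ratio of Mep1b FPKM to Mep1a FPKM in the same kidney (vertical axis, linear, from 0) against ischemia time in min (evenly spaced categories). Points are kidneys and the line joins the means of 3. The ratio runs from 0.132 to 0.166 in the sham kidneys, from 0.0627 to 0.0718 at 26 min and from 0.0110 to 0.0127 at 28 min.

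Anpep, the aminopeptidase that removes neutral residues, took another course: no decrease up to 26 min and then a fall at each of the last steps. Its sham kidneys were at 70.6, 66.4 and 61.1 FPKM, and the 18 kidneys of 16 to 26 min ran from 57.8 to 87.2 with a median of 74.6, spanning the sham range. At 28 min the kidneys were at 27.3, 32.6 and 26.6 FPKM and at 30 min at 13.95, 13.44 and 10.68. The 28 min kidneys lay below all shorter times and the 30 min kidneys below all 28 min kidneys. The log2 difference from 0 min was 0.04 ± 0.13 (SE) at 26 min, -1.28 at 28 min and -2.37 at 30 min. From 28 to 30 min Anpep fell by 1.09, but this call was lost without the 30 min replicate 3 kidney (-0.97).

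Mme, the neprilysin gene, fell past the threshold at 28 and 30 min. The sham kidneys held 38.0, 36.1 and 30.3 FPKM, the 18 kidneys of 16 to 26 min 17.5 to 33.2 with a median of 23.1, the 28 min kidneys 10.2, 12.2 and 10.8, and the 30 min kidneys 8.30, 6.89 and 10.1. Only the 16 min replicate 3 kidney, at 33.2, was within the sham range among the 18. At 16 min the log2 difference from 0 min was -0.55, not called, and it was -0.35 without 16 min replicate 2 and -0.78 without replicate 3. The difference was -0.77 ± 0.19 (SE) at 26 min, short of the threshold, -1.68 at 28 min and -2.02 at 30 min.

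Ggt1 was past the threshold at 30 min alone. Its sham kidneys were at 555, 529 and 502 FPKM, the 28 min kidneys at 290, 302 and 317 and the 30 min kidneys at 246, 220 and 184, with no overlap between these groups. The log2 difference from 0 min was -0.52 ± 0.07 (SE) at 26 min, -0.98 at 28 min and -1.35 at 30 min. The 28 min value lies just short of 1 and was called without the 0 min replicate 3 kidney (-1.03). Without quantile normalization the difference at 28 min was -0.80.

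Dpp4, Enpep and Vil1 were called in no comparison. Dpp4 had means of 21.2 FPKM at 0 min, 21.6 ± 4.38 (SD) at 26 min, 14.5 ± 1.62 at 28 min and 13.2 ± 1.15 at 30 min, and its log2 difference was -0.65 ± 0.16 (SE) at 28 min and -0.73 at 30 min. All 6 kidneys of 28 and 30 min lay under its lowest sham kidney of 20.0 FPKM, at 12.2 to 16.2. At 26 min its difference was -0.08, against 0.01 without quantile normalization, so its direction there depended on the scaling. Enpep, whose product converts angiotensin II to angiotensin III, had means of 37.6 FPKM at 0 min, 51.9 ± 10.3 (SD) at 26 min, 40.0 ± 2.53 at 28 min and 25.9 ± 3.38 at 30 min. Its log2 difference from 0 min was 0.36 ± 0.16 (SE) at 26 min and -0.60 at 30 min, and at 16 and 28 min, at -0.02 each, its sign flipped without quantile normalization (0.05 and 0.09).

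Villin went the other way up to 28 min. Vil1 was at 69.3, 69.4 and 68.9 FPKM in the sham kidneys, at 86.4, 95.7 and 94.6 at 26 min, at 99.5, 97.7 and 101 at 28 min and at 75.8, 71.0 and 66.0 at 30 min. All 18 kidneys of 16 to 26 min (72.9 to 95.7 FPKM) and all 28 min kidneys lay above the sham kidneys, and the 30 min kidneys spanned them. The log2 difference from 0 min was 0.34 ± 0.07 (SE) at 26 min, 0.44 at 28 min and 0.02 at 30 min. Relative to Vil1 in the same kidney, Mep1a went from a mean of 10.5 at 0 min to 3.81 at 26 min, 1.40 at 28 min and 1.20 at 30 min. Anpep had 0.954 of the Vil1 level in the sham kidneys, 0.783 of it after 26 min, 0.291 after 28 min and 0.178 after 30 min. Enpep had 0.543 of it in the sham kidneys, 0.562 after 26 min, 0.403 after 28 min and 0.364 after 30 min.

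The 7 peptidases together summed to 1523 ± 93.3 FPKM (SD) in the sham kidneys, 952 ± 36.9 after 26 min, 539 ± 16.9 after 28 min and 363 ± 34.9 after 30 min. As a share of all FPKM of a kidney this was a mean of 0.283% at 0 min and 0.0676% at 30 min. Mep1a and Ggt1 made up 82.5% of the sum at 0 min and 83.0% at 30 min, so the total mostly follows these genes.

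**Figure D3:**
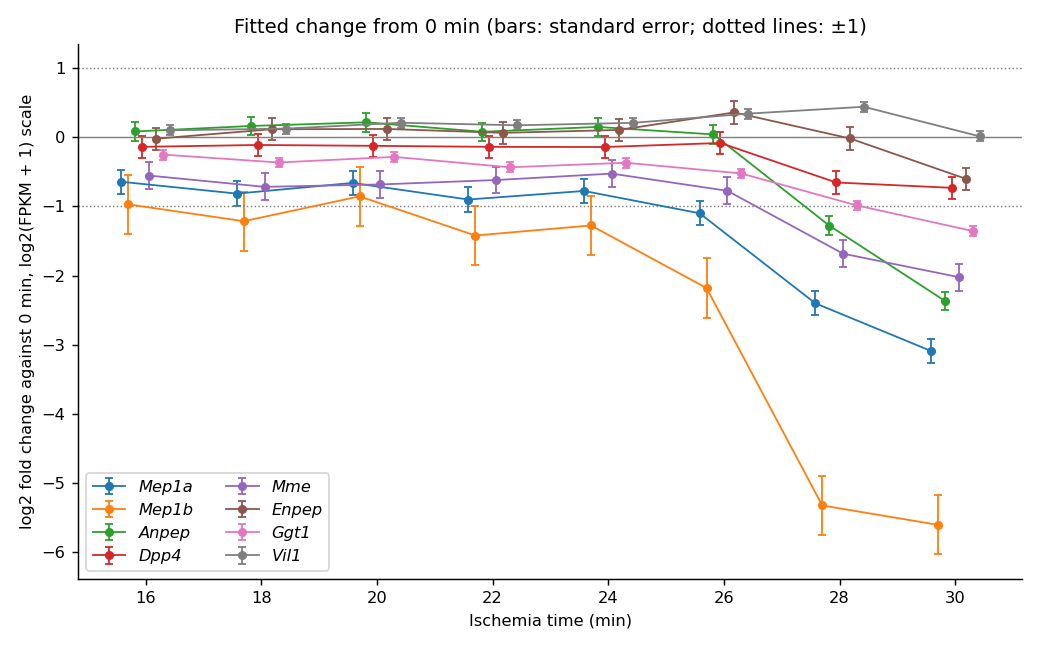
Fitted log2 fold change from 0 min (vertical axis, log2(FPKM + 1) scale, quantile normalized) of the 8 members at 8 ischemia times (horizontal axis, min, evenly spaced, points offset sideways for legibility). Bars are standard errors and dotted lines mark a change of 1. Mep1b reaches -5.61 and Mep1a -3.09 at 30 min, and Vil1 stays between 0.02 and 0.44.

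Counting calls, 0 of the 8 members were lower at 16 min, where 0.979% of all genes were called lower. The 1 member called lower was Mep1b at 18 min (background 1.09%), at 22 min (1.20%) and at 24 min (1.15%), and none was at 20 min (0.962%). At 26 min 2 were called lower, Mep1a and Mep1b (1.61%). At 28 min 4 were, Mep1a, Mep1b, Anpep and Mme (4.21%), and at 30 min 5 were, with Ggt1 added (5.59%). None was called higher at 28 min, where 4.27% of genes were, or at 30 min, where 5.14% were. The median log2 difference of the 8 members was -1.13 at 28 min and -1.69 at 30 min, where the medians of all genes were 0 and 0.00077. Since the choice of members was made with these results known, the counts are not evidence that the brush border stands apart from other genes.

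The Mep1b calls at the middle times rested on few kidneys. At 18 min the call was lost without any 1 of the sham kidneys, and without 18 min replicate 1 or 2. At 22 min it was lost without 0 min replicate 1 or 22 min replicate 3, and at 24 min without 0 min replicate 1 or 2 or 24 min replicate 1. At 16 min Mep1b, at -0.97 with all kidneys, was called lower (-1.41) without the replicate 3 kidney. No member was called at 26 against 16 min, where 0% of genes were called lower by limma, although 1717 genes had an unadjusted p under 0.05 in either direction and up to 14 were called lower with 1 kidney left out.

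The step from 26 to 28 min was addressed directly. Of the 8 members, 3 were called lower, namely Mep1b (-3.15), Anpep (-1.32 ± 0.13, SE) and Mep1a (-1.30), where 1.06% of all genes were called lower and 0.440% higher. Mme differed by -0.91, Dpp4 by -0.57, Ggt1 by -0.46, Enpep by -0.38 and Vil1 by 0.10, and none of these was called. All 3 kidneys of 28 min lay below all 3 of 26 min for every member except Vil1, which was higher without overlap, and 16.4% of all genes were lower without overlap in this way. This single step of 2 min held 56.1% of the whole log2 difference between 0 and 30 min for Mep1b and 55.7% for Anpep. It held 45.0% for Mme, 42.1% for Mep1a and 34.2% for Ggt1, the other members called at 30 min. Of the smaller differences of Enpep and Dpp4, which were not called, it held 63.0% and 78.3%. Enpep, however, was above its sham level at 26 min (0.36), and the step brought it back near that level (-0.02 at 28 min). A further -0.58 followed for Enpep from 28 to 30 min. No share is given for Vil1, whose difference between 0 and 30 min was only 0.02. From 28 to 30 min only Anpep was called lower, where 0.649% of genes were.

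In kidneys of the same ischemia time, Mep1a and Mme ranked alike with Mep1b. In each of the 6 groups of 16 to 26 min, the kidney lowest in Mep1b was also the lowest in Mep1a and in Mme. The full order of the 3 kidneys was the same for Mep1a in 5 of these 6 groups and for Mme in 4, against 2 for Ggt1, 1 each for Anpep and Dpp4, and 0 for Enpep and Vil1. Genes outside the members, picked after their values were seen, did so too: Slc7a13 in 4 groups and Cyp7b1 and Slc34a1 in 3 each. Genes of one kidney share its library and scaling, and the counts are given with no test. Across the 18 kidneys Mep1b varied most, 4.72-fold from the lowest to the highest, against 1.28-fold for Ggt1 and 1.31-fold for Vil1.

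For each member, the 3 genes with the most similar course were found by the root mean square difference of the 8 mean log2 changes from 0 min, among 11978 other genes at 1 FPKM or more at 0 min. For Mep1b these were Slc7a13 (0.20), which encodes an amino acid transporter of the S3 segment, Mettl7a2 (0.45) and Akr1c18 (0.59). Slc7a13 had a mean of 237 FPKM in the sham kidneys, 51.3 after 26 min, 7.37 after 28 min and 3.42 after 30 min. The distance of Mep1b to its nearest gene was larger than that of any other member. Mep1a was nearest to Slc16a4 (0.10), Cndp1 and Mpv17l, and Mme to Mccc2 (0.08), Slc22a18 and Ftcd. Anpep was nearest to Cckar (0.16), Pfn3 and Arhgef39, and Ggt1 to Tcaim (0.06), Scp2 and Tmem139. Dpp4 was nearest to Atp5a1 (0.04), Cdhr5 and Ak3, Enpep to Slc35d1 (0.08), Pgm3 and Gria3, and Vil1 to Snx7 (0.05), Ccp110 and Smc1a. Between members, Enpep and Vil1 were closest (0.28), and Mep1b was 1.93 or more from Mme, Anpep, Ggt1, Dpp4 and Enpep.

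Most other listed hydrolases of the brush border fell as well. Of 12 listed, 8 were called lower (background 4.21%) and 0 higher at 28 against 0 min, and 9 lower (5.59%) and 0 higher at 30 against 0 min. The medians were -1.33 and -1.67, where those of all genes were 0 and 0.00077. Cpm had a mean of 4.72 FPKM at 30 min against 4.68 at 0 min, Naaladl1 0.27 against 0.117 and Alpl 128 against 191, none of them called. Among the called hydrolases at 30 min were Ace, the angiotensin converting enzyme (-2.49 ± 0.13, SE, adjusted p = 3.3e-11, limma), and Dpep1, a dipeptidase (-2.45 ± 0.41, adjusted p = 3.6e-05). With them were Acy3, an aminoacylase (-2.33), Mgam, a glucosidase (-2.27), and Treh, the trehalase (-1.79), each beyond the threshold. Nt5e, the ecto-5′-nucleotidase, differed by -1.39 at 28 min, where it was among the largest. Dpep1 was at 9.22, 8.17 and 26.2 FPKM at 30 min, the highest of these in replicate 3, without which its difference was -2.95 and that of Ace -2.54. At 16 min Dpep1 was at -0.998, not called, and without 16 min replicate 3 it was called lower at -1.52.

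Between 26 and 28 min, 4 of the 12 hydrolases were called lower (background 1.06%) and 0 higher, beside the 3 members. They were Acy3 (-1.84 ± 0.17, SE, adjusted p = 5.5e-06, limma), Dpep1 (-1.24, adjusted p = 0.038), Ace (-1.15) and Xpnpep2 (-1.08), an aminopeptidase at only 3.92 FPKM at 26 min. Without 26 min replicate 2 the count was 2. Acy3 had means of 1395 FPKM at 0 min, 2062 after 16 min, 2086 after 20 min, 1416 after 26 min and 424 after 28 min, and its differences from 0 min up to 26 min were not called. Folh1, a carboxypeptidase picked out after its values were seen, was called lower already at 16 min (-1.37 ± 0.22, SE) and was called at 30 min (-1.03), but not without 0 min replicate 3 (-0.96) or 30 min replicate 3 (-0.83).

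The microvillus core and its scaffold, the list to which villin is closest in role, showed fewer calls. Of 15 genes, 1 was called lower at 28 min (background 4.21%), Cltrn, which assists amino acid transporters at the brush border (-1.38 ± 0.15, SE, adjusted p = 5.1e-07, limma). At 30 min 3 were called lower (5.59%), Pdzk1, a scaffold of transporters (-1.79 ± 0.18), Cltrn (-1.56) and Cdhr2, a cadherin of microvillus tips (-1.35). None was called higher in either comparison, though 1 was at 30 min without 30 min replicate 1. Ezr rose from a mean of 166 FPKM at 0 min to 259 at 28 min and 306 at 30 min, and Actn4 from 109 to 164 and 184. Between 26 and 28 min 0 were called by limma. The list there ranged from -0.79 to 0.33 with a median of -0.21 against 0.0037 over all genes, and 10 of the 15 had an unadjusted p under 0.05. At 30 min the median was -0.17. The difference between this list and the hydrolases was not tested.

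**Figure D4:**
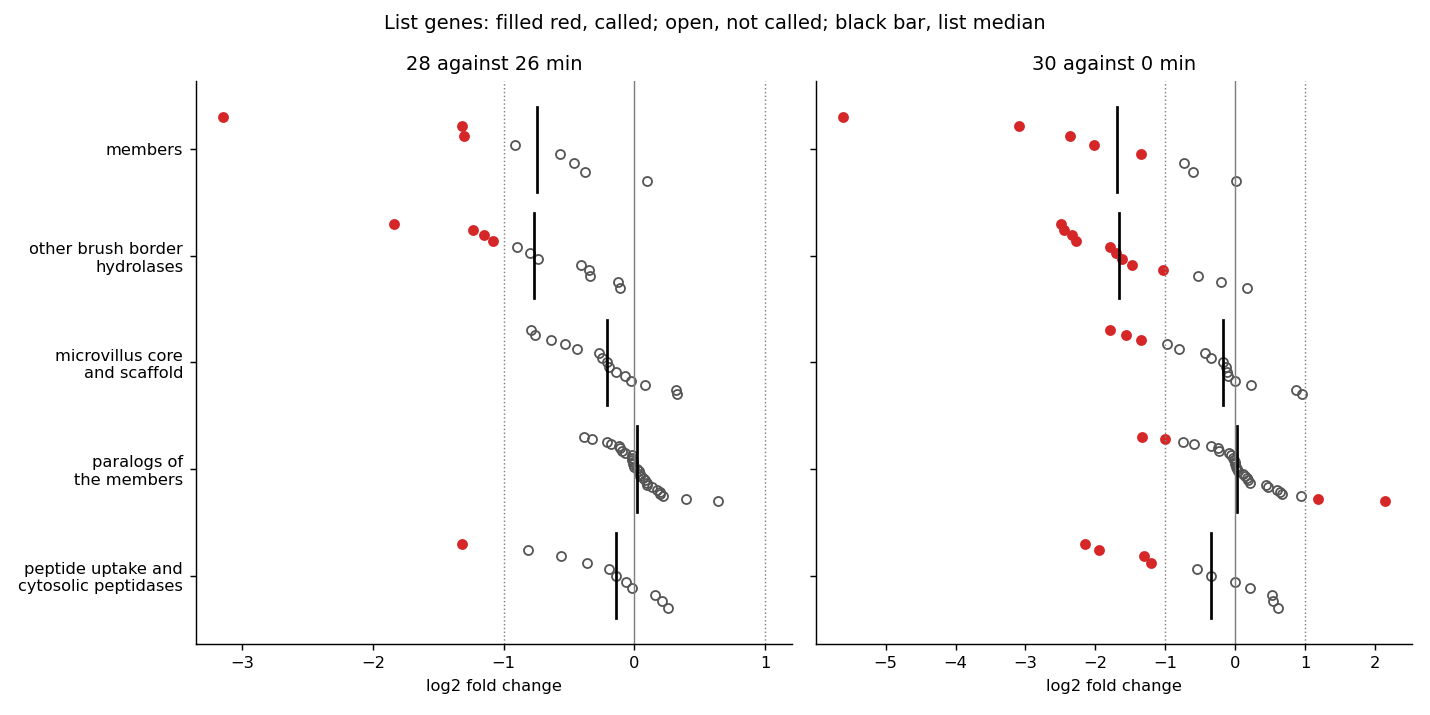
Log2 fold change (horizontal axes) of the 8 members and of the genes in 4 lists, at 28 against 26 min and at 30 against 0 min. Each circle is 1 gene, filled red where called and open where not, black bars are medians of the list and dotted lines mark a change of 1. The members and the other hydrolases have 3 and 4 genes called lower in the left panel (1.06% of all genes). In the right panel they have 5 and 9 (5.59% of all genes), and the paralogs are centred near 0.

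Genes related in sequence to the members but outside the brush border list did not move together. Of 32 paralogs, 29 were tested, and 2 were called lower (background 5.59%) and 2 higher (5.14%) at 30 min, with a median of 0.03. Vill, a villin-like gene, fell by 1.34 (SE 0.12, adjusted p = 1.5e-08, limma) and Ggt6, just past the threshold, by 1.003, while Capg, an actin capping relative of villin, rose by 2.15 (SE 0.29) and Bmp1, an astacin protease like the meprins, rose by 1.18. The count called lower was 1 without 0 min replicate 2 or 3 or 30 min replicate 3, and 1 without quantile normalization. At 28 min Vill was lower (-1.27) and Capg higher (1.72), and between 26 and 28 min 0 paralogs were called, with 7 of the 29 at an unadjusted p under 0.05.

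Of 11 genes of peptide uptake and cytosolic peptidases, the next step after cleavage at the membrane, 2 were called lower at 28 min, 4 at 30 min and 1 between 26 and 28 min, and 0 higher in all 3 comparisons. Of all genes, 4.21%, 5.59% and 1.06% were called lower in these comparisons. Slc15a2, the high-affinity peptide transporter of the brush border, differed by -1.32 ± 0.28 (SE, adjusted p = 0.0028, limma) between 26 and 28 min, from 46.0 to 18.6 FPKM. At 30 min it was at 13.1, 14.3 and 31.6 FPKM, the highest in replicate 3, without which its difference from 0 min was -2.35. Acy1 (-2.15), Slc15a2 (-1.95), Cndp2 (-1.30) and Lap3 (-1.21) made up the calls at 30 min. The median of the list at 30 min was -0.35. Most genes of the list were not called at 30 min, so the genes named here do not stand for the whole list. Cndp2, not called at 28 min (-0.88), was called lower there without 0 min replicate 3 (-1.003).

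Marker levels of the tubule segments are set beside the members here. The 6 markers of proximal tubule S1 and S2, all present, summed to 2924 to 3270 FPKM at 0 min, 1874 to 3509 at 26 min, 1215 to 1347 at 28 min and 701 to 853 at 30 min. The 6 markers of the S3 segment, all present, summed to 631 to 876 at 0 min, 306 to 551 at 16 min, 216 to 281 at 26 min, 117 to 129 at 28 min and 99.8 to 117 at 30 min. The S1 and S2 sum thus overlapped with the sham range at each time to 26 min, and the S3 sum was lower without overlap from 16 min on. These sums follow few genes, and the single markers did not move as one. Of the S1 and S2 markers, 0 were called at 16 or 26 against 0 min by limma, with 1 of 6 at an unadjusted p under 0.05 at each, 2 were called lower at 28 min, the phosphate transporter Slc34a1 (-1.88) and Gatm (-1.83), and 5 at 30 min, while the other 4 ranged from -0.52 to 0.06 at 28 min. Slc34a1 alone made up 54.9% to 57.6% of the sum at 28 min and 69.4% to 72.7% at 0 min. Of the S3 markers, 2 were called lower at 16 min, Cyp7b1 (-2.51) and Slc22a7 (-1.53), 4 at 26 min and 5 at 28 min. Slc5a1, a glucose transporter, was called at none of these times, at 0.28 after 16 min, 0.43 after 26 min and -0.51 after 28 min, and Atp11a, at -0.80 after 26 min, was called from 28 min on. The 5 tubular injury markers summed to 793 to 1795 FPKM at 0 min, 10159 to 14868 at 26 min and 17373 to 22603 at 28 min. Spp1, which encodes osteopontin, made up 95.0% to 98.6% of this sum at 0 min, 91.8% to 94.0% at 26 min and 87.0% to 90.5% at 28 min. Havcr1, Lcn2, Krt20 and Spp1 were called higher at 16, 26, 28 and 30 min, and Vcam1 only at 28 min among these. The part of all these markers in the levels of the members was not tested.

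The markers of other cell types follow for the same kidneys. Loop of Henle and distal tubule markers (6 of 6 present) summed to 1910 to 2141 FPKM at 0 min, 659 to 942 at 28 min and 641 to 2415 at 30 min (641 to 660 without replicate 3). Collecting duct markers (6 of 6) summed to 399 to 598, 241 to 318 and 310 to 686 (310 to 338 without 30 min replicate 3). Podocyte markers (5 of 5) were at 45.1 to 63.5 at 0 min and 77.6 to 135 at 30 min, and endothelial markers (6 of 6) at 80.5 to 98.2 and 115 to 166. Fibroblast markers (6 of 6) were at 40.7 to 46.7 at 0 min, 144 to 203 at 26 min and 46.6 to 138 at 30 min (46.6 to 80.0 without replicate 3). Leukocyte markers (12 of 12) were at 30.0 to 45.1 at 0 min and 47.35 to 76.95 at 30 min (47.35 to 60.55 without replicate 3). At 30 against 0 min, 4 loop of Henle and distal tubule markers and 1 collecting duct marker were called lower, 1 podocyte marker was called higher, and 0 endothelial markers were called by limma, with 4 of 6 at an unadjusted p under 0.05. Of the fibroblast markers 3 were called higher, the collagens Col1a1, Col1a2 and Col3a1, and 1 lower, Dcn. Of the 12 leukocyte markers, Lyz2 (1.20), Itgam (1.34), S100a8 (1.35) and S100a9 (1.39), genes of myeloid cells, were called higher, Csf1r, a macrophage receptor, was called lower (-1.23), and the median was -0.13. Intestinal brush border genes, which share several of the members, were at 0.09 FPKM or less for the 3 of 5 listed. Markers of the kidney's own cell types were thus present, and the part of the other cell types in the members' levels was not tested.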

How the data were processed

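RNA from 27 left kidneys was sequenced by the authors on the DNBSEQ platform. The authors deposited linear FPKM per gene symbol and kidney with 2 decimals, which the paper calls RPKM. The submitters' processing notes name Bowtie2, RSEM, DESeq2 and GRCm38.p6 without versions. The quantile normalization and log2 step of the paper are not in the deposited FPKM, and the depth is unknown.

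FPKM were taken as log2(FPKM + 1), quantile normalized and fitted in limma 3.58.1 (R 4.3.3), each ischemia time having its own mean, for the 18188 genes that exceeded 0 FPKM in 3 or more kidneys. Calls needed a log2 fold change beyond 1 in size, with a p-value below 0.05 after Benjamini-Hochberg adjustment over all these genes. Groups came from the labels, and each mouse is a replicate. The fit was tested on simulated data. Levels, ratios and figures used Python 3.11.15, pandas 2.3.3, numpy 2.4.6 and matplotlib 3.10.9.

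The members and lists were chosen with earlier results of these data known. Named genes are all 8 members, up to 6 genes per list with the largest change among those called at 28 or 30 against 0 min or 28 against 26 min, list genes called in the opposite direction, and the 3 nearest genes per member. Some items that this rule names are not reported here. Promoters are from RefSeq. Alternatives changed the pseudocount (0.1 FPKM), the scaling (none, or a constant FPKM sum), the filter (1 FPKM in 3 kidneys, or none), the samples fitted (the 2 groups alone, or 1 replicate left out), the eBayes trend and the replicate block. Leaving out the 16 min kidneys was chosen after seeing the data. Protein sequences were not used here.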

Additional observations from a re-analysis of the deposited data

How the results depend on the processing

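No result changed direction past the threshold. Over all genes, a pseudocount of 0.1 FPKM raised the genes called lower to 321, 415, 359, 459, 412, 580, 1304 and 1663 at 16 to 30 against 0 min, to 329 at 28 against 26 min and to 253 at 30 against 28 min, and those called higher to 1322 at 28 and 1613 at 30 against 0 min and 186 at 28 against 26 min. A fit of the 2 groups alone called 5, 131 and 92 genes lower at 16, 18 and 20 against 0 min and 0 at 30 against 28 min. With it, 0 members were called at 18 or 24 against 0 min or at 30 against 28 min, where Anpep was at -1.09. For these the cause was not tested, beyond the fewer kidneys in the 2-group fit. Without quantile normalization or with a constant sum, 1 paralog was called lower at 30 min.

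When single replicates were left out, genes called lower ranged from 0 to 14 at 26 against 16 min and from 46 to 189 at 30 against 28 min, and genes called higher at 28 against 26 min from 43 to 121. Members called ranged from 0 to 1 at 16, 18, 22 and 24 against 0 min and at 30 against 28 min. Hydrolases called lower at 28 against 26 min ranged from 2 to 4, paralogs called lower at 30 min from 1 to 3, and scaffold genes called higher at 30 min from 0 to 1.

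On average, kidneys with the same replicate number were hardly more alike than others. Over all 108 pairs with the same number, the mean correlation of deviations was 0.00868, against -0.00455 for different numbers. The correlation ran from -0.416 to 0.48 and was over 0.1 in 25 of the 108, and 8 of 27 kidneys correlated best with their own number. Whether kidneys of some groups were paired was not tested. A replicate block called 767 genes lower at 28 against 0 min, against 766 without it, and changed no member's call. Leaving out the 16 min kidneys, an alternative chosen after seeing the data, changed no member's call. With no read counts, the precision of Mep1b near 1 FPKM is known from 3 kidneys alone.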

Other observations

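Within the groups of 16 to 26 min, genes picked after their values were seen were set beside Mep1b. Slc7a13 had its lowest kidney where Mep1b had its lowest in 5 of the 6 groups, Kap in 4, Cyp7b1 and Slc34a1 in 3 each and Slc5a2 in 1. The highest kidney was shared with Mep1b in 5 groups each for Slc7a13, Cyp7b1 and Slc34a1, 4 for Slc5a2 and 3 for Kap. The 2 counts thus ranked these genes differently. The full order of the 3 kidneys was shared in 4 groups for Slc7a13, 3 each for Cyp7b1 and Slc34a1, 2 for Kap and 1 for Slc5a2. Havcr1, the injury marker, was lowest in the kidney with the most Mep1b in 5 of 6, as were the members Enpep in 4 and Vil1 in 3. At 16 min, for instance, Mep1b was at 58.6, 27.7 and 98.0 FPKM and Havcr1 at 332, 574 and 35.1. These are counts over 6 groups of 3 kidneys, with no test.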
